A study of Mus musculus with 6 samples.

Results

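Genes that mark or maintain blood progenitors were followed into erythroblasts that lack the microRNAs miR-144 and miR-451. The genes were Cd34, Erg, Fli1, Etv6, Spi1, Meis1, Hoxa9, Lyl1, Runx1 and Myc. They were found by symbol among probe sets whose platform annotation names a single gene. All 10 genes were measured, by 21 of 45037 tested probe sets, and 10 of the 18193 genes with a probe set are members. No probe set named a member together with another gene.

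Erythroblasts came from 3 miR-144/451 knockout mice (KO, arrays 493, 548 and 551) and from 3 wild-type mice (WT, arrays 497, 504 and 550). From each mouse, bone marrow cells positive for Ter119, an erythroid surface antigen, and for CD71, the transferrin receptor, and of large size (high forward scatter) were collected by sorting into Trizol LS, an RNA extraction reagent. Their total RNA was hybridised to Affymetrix mouse genome arrays, 1 array a mouse. Groups and array numbers come from the sample titles, no number occurs in both groups, and strain, age, sex and litter were not used here.

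Haematopoietic stem and progenitor cells keep their identity through a network of transcription factors that bind together at shared enhancers. It includes the ETS-domain proteins ERG and FLI1, the core-binding factor RUNX1 and the basic helix-loop-helix protein LYL1. Red cell differentiation proceeds as GATA1 displaces this programme, and PU.1, the product of Spi1, and GATA1 oppose each other. Progenitor factors are therefore mostly low in late erythroblasts, and some of them stay in use in megakaryocytes, mast cells, B cells or myeloid cells. On these arrays of large sorted cells the members were mostly not among the dim probe sets. By mean level, the brightest probe set of Meis1 was at percentile 38.3, and those of the other members at 59.3 (Hoxa9) to 92.1 (Lyl1).

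The mature microRNAs of the locus that the KO mice lack are shown because they define the comparison. The sequences are from RefSeq (GRCm38.p6), and capitals mark the seed, bases 2 to 8, through which a microRNA pairs with its targets. The 3 seeds differ from each other. The array values used here do not measure the mature microRNAs, so the genotypes rest on the labels.
miR-144-3p (chr11:78073047-78073066, plus strand): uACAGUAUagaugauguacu
miR-144-5p (chr11:78073010-78073032, plus strand): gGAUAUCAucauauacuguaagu
miR-451a (chr11:78073186-78073207, plus strand): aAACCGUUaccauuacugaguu

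The members did not move as one group. Cd34, Fli1, Erg and Spi1 lay 0.62 to 0.83 lower in KO on the log2 scale, about 0.56 to 0.65 times the WT level, with no overlap between the groups. Hoxa9 lay 0.63 higher, also with no overlap. Runx1 lay 0.43 higher on its brightest probe set, with overlapping groups, and 3 of its 6 probe sets had a lower KO mean. Etv6, Lyl1, Meis1 and Myc differed by 0.25 or less, with overlapping groups. After adjustment over all 45037 probe sets limma, a linear model with moderated variances, called 0 member genes lower and 0 higher at an adjusted p under 0.05, when 0.148% of all genes were called lower and 0.236% higher.

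At an unadjusted p under 0.05, 4 of the 10 genes were lower (12.7% of all genes) and 2 were higher (8.34% of all genes). The groups did not overlap for 4 members lower in KO (16.2% of all genes) and 1 member higher (12.5% of all genes). A lower KO mean was found for 8 of the 10 genes (55.7% of all genes). That count was 7 after a further quantile, cyclic loess or median normalization, and 6 without WT 550. Over the 10 genes the median difference, KO minus WT, was -0.23, beside -0.04 over all genes. Of the 21 probe sets limma called 0 lower (0.171% of all probe sets) and 0 higher (0.184% of all). Over the 21 probe sets, 16 had a lower KO mean (56.4% of all probe sets), 6 were lower with an unadjusted p under 0.05 (12.2% of all) and 2 higher (7.61% of all). Groups did not overlap for 8 probe sets below WT (15.3% of all) and 1 above (10.7% of all). Here a gene is read by the brightest of its probe sets, by the mean of the 6 arrays, and every difference is a log2 difference, KO minus WT, with limma's standard error.

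**Figure D1:**
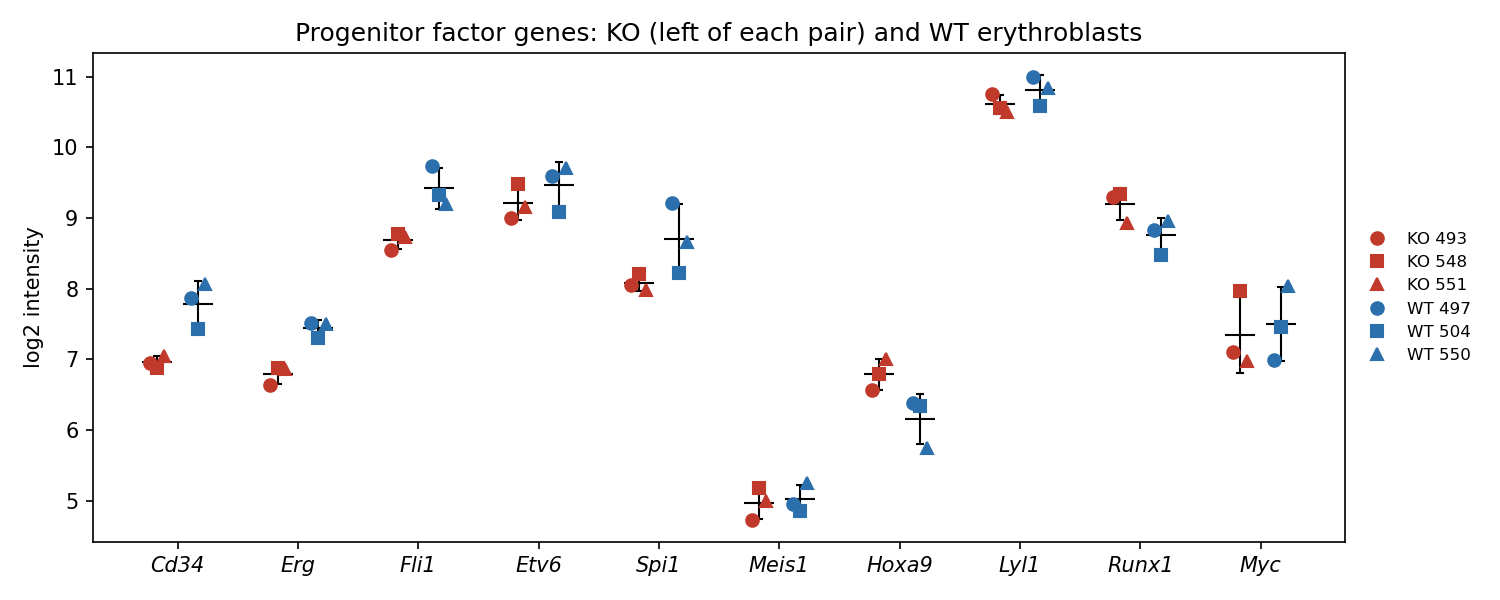
Log2 intensity of the brightest probe set of each member gene on every array, KO left and WT right of each pair; the long bars are group means and the error bars SDs of 3 mice. The KO points of Cd34, Erg, Fli1 and Spi1 lie below all WT points and those of Hoxa9 above them; heights of different genes cannot be compared, since probe sets bind with different strength.

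Cd34 encodes a sialomucin that is used to isolate haematopoietic progenitors and is also found on mast cells and endothelium. Its single probe set read 6.94, 6.88 and 7.05 in KO 493, 548 and 551, against 7.86, 7.43 and 8.06 in WT 497, 504 and 550. All KO arrays lay below all WT arrays, and they differed little among themselves while WT 504 lay well under the other WT arrays. The means were 6.96 ± 0.09 in KO and 7.78 ± 0.32 in WT (SD, n = 3 each), a difference of -0.83 ± 0.17 (SE; 95% interval -1.24 to -0.42; limma, adjusted p = 0.0954).

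Erg, an ETS factor required for stem cell self-renewal and for megakaryocyte formation, had the smallest p of the members. Its brighter probe set read 6.63, 6.87 and 6.86 in KO 493, 548 and 551, against 7.51, 7.30 and 7.5 in WT 497, 504 and 550. The gap between the groups was wider than the spread inside either of them. The difference was -0.65 ± 0.12 (SE, 95% interval -0.94 to -0.36; limma, adjusted p = 0.0792). The dimmer Erg probe set also lay lower on every KO array, at 4.59, 4.73 and 4.40 in KO against 4.94, 5.16 and 4.99 in WT (-0.46 ± 0.13; limma, adjusted p = 0.143). Both Erg probe sets thus had separate groups with KO below WT, although the dimmer one is close to the 25th percentile of its arrays (4.3 to 4.4).

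Fli1, the nearest relative of Erg in the ETS family and a driver of megakaryocyte genes that holds back red cell maturation, showed the same arrangement. Its brighter probe set read 8.55, 8.77 and 8.73 in KO 493, 548 and 551, against 9.74, 9.32 and 9.19 in WT 497, 504 and 550. WT 497 was the highest array, and the lowest WT array was still above the highest KO array. The difference was -0.73 ± 0.16 (SE, 95% interval -1.12 to -0.34; limma, adjusted p = 0.106). The other Fli1 probe set read 4.40, 4.98 and 4.67 in KO against 5.52, 5.39 and 5.14 in WT, a difference of -0.67 ± 0.18 (limma, adjusted p = 0.136), so both probe sets gave a similar size.

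These genes sit near the threshold and the choice of variance model or filter decides their call. With an intensity trend and robust prior, Fli1 (adjusted p = 0.036), Cd34 (adjusted p = 0.0391) and Erg (adjusted p = 0.0434) were called lower by limma, in a fit that called 2.04% of all genes lower and 2.37% higher, and 1.83% of all probe sets lower. With dim probe sets left out, Erg (adjusted p = 0.0345) and Cd34 (adjusted p = 0.0491) were called lower, in a fit that called 1.83% of its genes lower and 2.56% higher, and 1.92% of its probe sets lower. None of the 3 was called in any of the 6 fits without 1 mouse. Those fits called few genes of any kind, 5 to 14 of 18193, against 70 in the reported fit. In those fits the differences ran from -1.0 to -0.69 for Cd34, from -0.72 to -0.57 for Erg and from -0.85 to -0.57 for Fli1.

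Spi1 encodes PU.1, the ETS factor of myeloid and B cells that antagonises GATA1 in red cell precursors. It read 8.05, 8.20 and 7.98 in KO 493, 548 and 551, against 9.21, 8.22 and 8.66 in WT 497, 504 and 550. The groups were separate by the narrowest of margins, with KO 548 just under WT 504, and the WT arrays spread over about a log2 unit. The difference was -0.62 ± 0.24 (SE, 95% interval -1.20 to -0.04; limma, adjusted p = 0.228). It was -0.36 without WT 497 and -0.86 without WT 504, so these 2 mice set its size.

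Etv6, an ETS repressor that stem cells need to persist in bone marrow, had no separation. Its brighter probe set read 9.0, 9.48 and 9.15 in KO, against 9.59, 9.09 and 9.70 in WT, so that WT 504 lay inside the KO range. The difference was -0.25 ± 0.20 (SE, 95% interval -0.73 to 0.23; limma, adjusted p = 0.532), and it was -0.43 without WT 504 and -0.13 without WT 550. The other probe set was at -0.22 ± 0.12. The interval reaches past the size of the Erg difference, so the data do not show that Etv6 was at the same level in both genotypes.

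**Figure D2:**
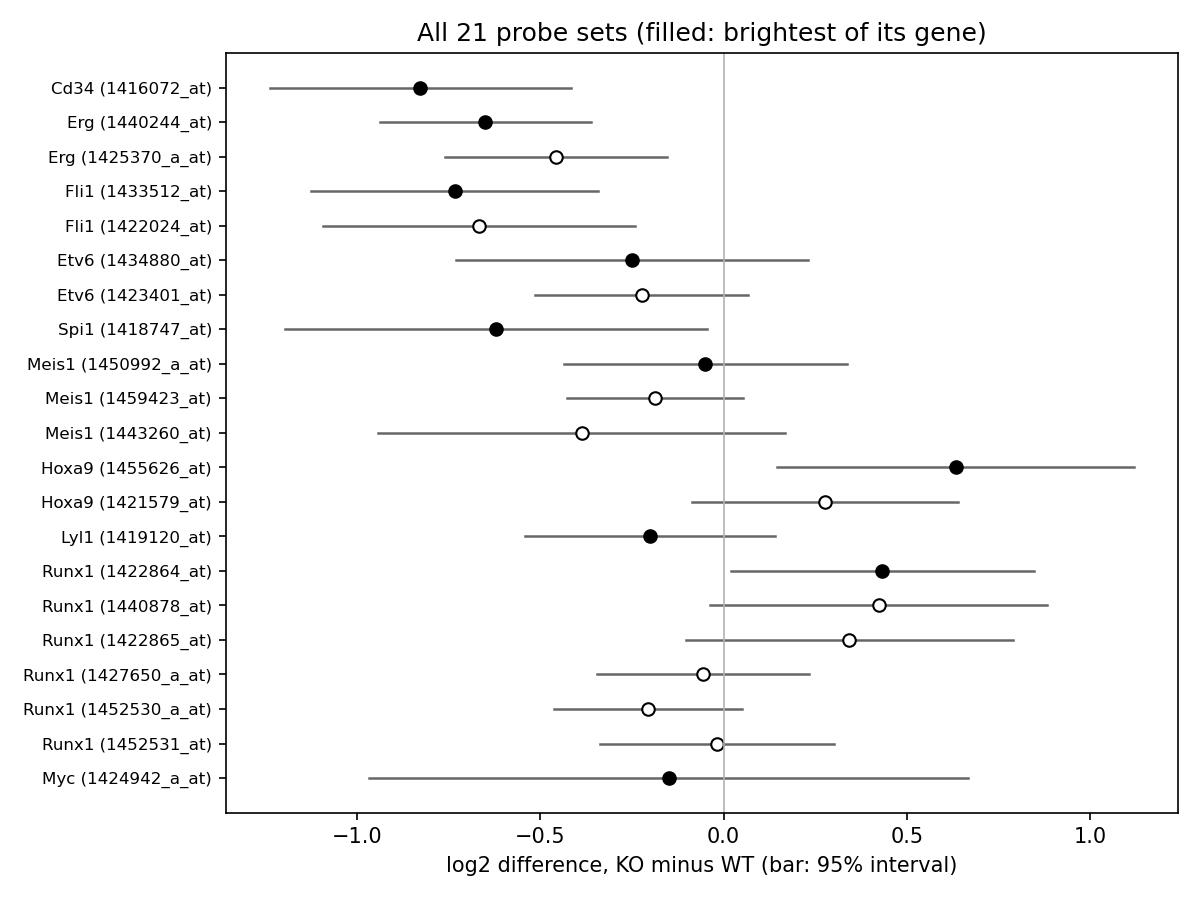
Log2 difference, KO minus WT, of each of the 21 member probe sets (points) with limma's 95% interval (bars); filled points mark the brightest probe set of a gene. The intervals of Cd34, Spi1 and both probe sets of Erg and of Fli1 lie below 0, while those of the brightest Hoxa9 and Runx1 probe sets lie above 0.

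Of the homeobox members Hoxa9 and Meis1, Hoxa9 had KO means above its WT means on both of its probe sets. Hoxa9, a HOX factor that promotes progenitor expansion and is silenced during differentiation, read 6.57, 6.79 and 7.01 in KO 493, 548 and 551, against 6.38, 6.34 and 5.75 in WT 497, 504 and 550. Every KO array was above every WT array, and WT 550 was the lowest by a wide step. The difference was 0.63 ± 0.20 (SE, 95% interval 0.15 to 1.12; limma, adjusted p = 0.175), and it was 0.43 without WT 550. The dimmer Hoxa9 probe set gave 5.73, 5.94 and 6.19 in KO and 5.70, 5.82 and 5.51 in WT, a difference of 0.28 ± 0.15 (limma, adjusted p = 0.363) with overlapping groups.

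Meis1, the TALE homeobox partner of HOXA9 on DNA, was dim on all 3 of its probe sets (KO means of 4.20 to 4.97), near the level of the dimmer Erg and Fli1 probe sets (KO means of 4.57 and 4.68). Its brightest one read 4.73, 5.18 and 5.0 in KO, against 4.95, 4.86 and 5.25 in WT, which overlap fully. The difference was -0.05 ± 0.16 (SE, 95% interval -0.44 to 0.34; limma, adjusted p = 0.894). A second probe set had separate groups, at 4.55, 4.62 and 4.66 in KO against 4.89, 4.74 and 4.76 in WT (-0.19 ± 0.10; limma, adjusted p = 0.354). The third was at -0.39 ± 0.23 with overlapping groups, and it fell under its array's 25th percentile on 2 of the 6 arrays. No direction is given for Meis1, since its brightest probe set changed sign under other settings. Meis1 lies on chromosome 11, as does the deleted locus.

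Lyl1, a helix-loop-helix factor that is close to TAL1 and can stand in for it in progenitors, read 10.76, 10.56 and 10.50 in KO, against 11.00, 10.58 and 10.84 in WT. The groups overlapped through WT 504, which lay inside the KO range. The difference was -0.20 ± 0.14 (SE, 95% interval -0.54 to 0.14; limma, adjusted p = 0.481). It was -0.31 without WT 504 and -0.10 without WT 497.

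Runx1, the DNA-binding subunit of core-binding factor, starts blood formation in the embryo and is transcribed from a distal and a proximal promoter. Its 6 probe sets did not give a single direction. The brightest read 9.30, 9.34 and 8.93 in KO 493, 548 and 551, against 8.83, 8.48 and 8.96 in WT 497, 504 and 550, a difference of 0.43 ± 0.17 (SE, 95% interval 0.02 to 0.85; limma, adjusted p = 0.236). Here KO 551 and WT 550 crossed over, and the other KO arrays were above all WT arrays. The next brightest read 8.93, 9.31 and 9.06 in KO against 8.66, 8.35 and 9.02 in WT (0.42 ± 0.19), and the third 8.29, 8.68 and 8.32 in KO against 7.96, 7.87 and 8.43 in WT (0.34 ± 0.19). The 3 dimmer probe sets were at -0.06 ± 0.12, -0.21 ± 0.11 and -0.02 ± 0.13. The one at -0.21 was the only Runx1 probe set with separate groups, at 5.78, 5.93 and 6.0 in KO against 6.15, 6.03 and 6.15 in WT, and it ran opposite to the brightest one (limma, adjusted p = 0.339). The mean of all 6 was 0.15 higher in KO (limma, adjusted p = 0.554), so the size reported for Runx1 depends on the probe sets used.

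**Figure D3:**
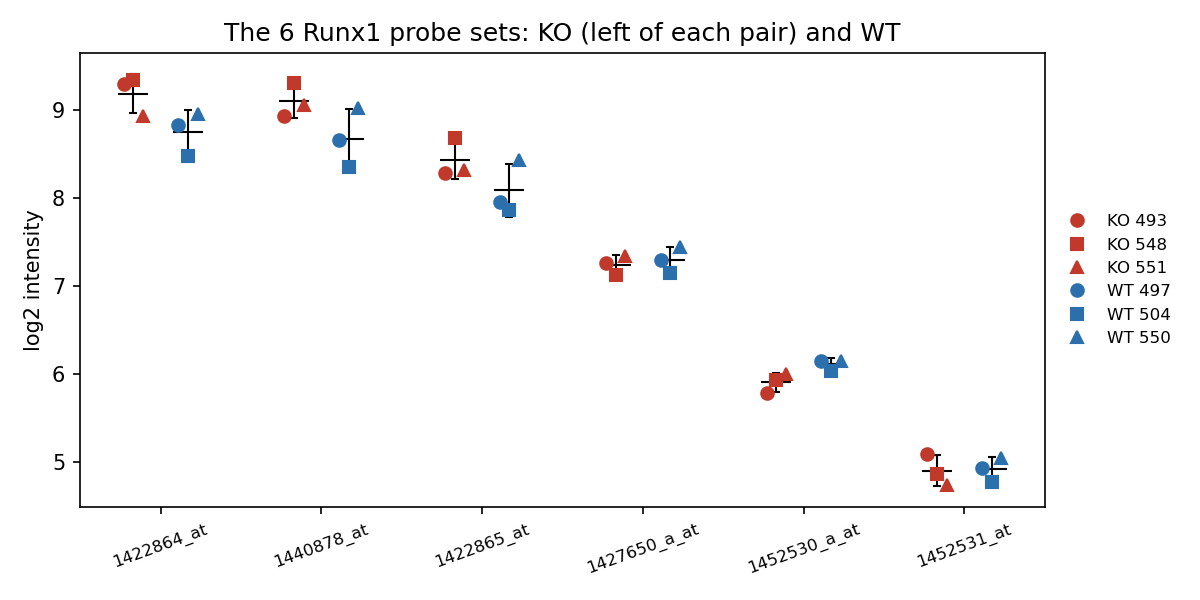
Log2 intensity of the 6 Runx1 probe sets on every array, brightest at the left, KO left and WT right of each pair; the long bars are means and the error bars SDs of 3 mice. The KO means of the 3 brightest probe sets lie above the WT means by 0.34 to 0.43, and those of the 3 dimmer ones lie below by 0.02 to 0.21.

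The promoter windows of Runx1 are shown because its probe sets disagree and the gene has more than 1 start, and an Erg window because Erg had the smallest p. Of the 3 Erg windows the innermost was chosen because it holds a match to a motif searched, and the others hold none. Each is the 250 bases before an annotated start, from RefSeq (GRCm38.p6), read 5′ to 3′ on the gene's strand. Windows were found for 7 of the 10 members, 10 windows in all. Capitals mark matches, on either strand, to GGAAGT (an ETS core), TGTGGT (RUNX), AGATAA (for GATA factors) or CACGTG (the E-box that MYC binds with MAX), none of which overlap here.
Runx1, distal (chr16:92826075-92826324, minus strand): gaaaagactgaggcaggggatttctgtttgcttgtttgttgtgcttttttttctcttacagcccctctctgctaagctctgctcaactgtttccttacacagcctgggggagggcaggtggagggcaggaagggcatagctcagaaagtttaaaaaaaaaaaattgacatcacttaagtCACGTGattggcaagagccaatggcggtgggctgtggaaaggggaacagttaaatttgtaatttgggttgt
Runx1, proximal (chr16:92697330-92697579, minus strand): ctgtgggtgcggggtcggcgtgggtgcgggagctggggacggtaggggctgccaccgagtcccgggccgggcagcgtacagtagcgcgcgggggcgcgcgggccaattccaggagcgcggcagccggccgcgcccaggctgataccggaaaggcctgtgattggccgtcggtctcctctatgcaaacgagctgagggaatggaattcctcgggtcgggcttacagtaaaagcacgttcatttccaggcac
Erg, innermost start (chr16:95459349-95459598, minus strand): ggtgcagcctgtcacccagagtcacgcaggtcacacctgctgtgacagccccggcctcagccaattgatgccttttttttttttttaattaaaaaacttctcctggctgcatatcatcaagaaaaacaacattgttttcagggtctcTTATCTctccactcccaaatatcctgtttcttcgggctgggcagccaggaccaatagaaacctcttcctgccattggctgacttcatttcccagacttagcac

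The distal Runx1 window holds the E-box letters 71 bases before the start, and the Erg window holds the GATA letters, on the opposite strand, 103 bases before the start. Among 32851 windows of the same length, 6.02% held CACGTG, 9.99% AGATAA, 14.1% TGTGGT and 19.7% GGAAGT. Each motif was found in 1 of the 10 member windows, and the ETS and RUNX matches were both in the Meis1 window. The probe sets of Runx1 were not assigned to either start here, so the windows do not say which transcript each probe set reads.

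Myc encodes the growth regulator that must decline before red cells can leave the cell cycle. It had the widest spread of the members, at 7.10, 7.96 and 6.98 in KO 493, 548 and 551, against 6.99, 7.46 and 8.04 in WT 497, 504 and 550. Each genotype covered about a log2 unit, and the highest array of each lay close to that of the other. The difference was -0.15 ± 0.34 (SE, 95% interval -0.97 to 0.67; limma, adjusted p = 0.845), and it was 0.12 without WT 550 and 0.03 without KO 551. A change of up to about 0.97 downward or 0.67 upward lies inside the interval.

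Arrays of 1 genotype differed in step across several members. KO 548 was the highest KO array for 7 of the 10 genes, and WT 504 was the lowest WT array for 7 of them and the highest for 0. Mean deviations from the genotype mean over the members were 0.14 for KO 548 and -0.20 for WT 504. Without WT 504 the member genes lower at an unadjusted p under 0.05 numbered 5, and in the other fits that left out 1 mouse they numbered 3 each. None of these counts was made over all genes, so they are not shown to be particular to the members.

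The wider network of progenitor transcription factors, in a list of 30 genes written from general knowledge, had 29 measured members. Limma called 0 of them (0.148% of all genes were called lower and 0.236% higher). At an unadjusted p under 0.05, 9 were lower (12.7% of all genes) and 0 higher (8.34% of all genes). A lower KO mean was found for 23 (55.7% of all genes), and the median difference was -0.17, beside -0.04 over all genes. Mef2c, a MADS-box factor of lymphoid and myeloid progenitors, read 8.26, 7.92 and 7.89 in KO against 9.03, 8.91 and 8.71 in WT (-0.86 ± 0.15; limma, adjusted p = 0.0706). Hlf, a stem cell bZIP factor, read 5.45, 5.41 and 5.15 in KO against 6.05, 5.83 and 5.95 in WT (-0.61 ± 0.13; limma, adjusted p = 0.0937), and it lies on chromosome 11.

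Some direct partners of the members in this list were picked out after their values were seen. Cbfb, the non-DNA-binding partner of RUNX1, read 9.37, 9.28 and 9.33 in KO against 10.29, 9.75 and 10.14 in WT, a difference of -0.73 ± 0.15 (limma, adjusted p = 0.0966) on the side opposite to that of the brighter Runx1 probe sets. Gata2, the GATA factor that precedes GATA1, was at -0.71 ± 0.29, with overlapping groups. Tal1 and Lmo2, which bind with these factors and stay in use in erythroblasts, were at -0.06 ± 0.11 and -0.06 ± 0.09. In the same list 6 genes had a higher KO mean. Among them were Ldb1 at 0.23 ± 0.11 and Tcf12 at 0.19 ± 0.10, both with every KO array above every WT array.

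Progenitor surface genes had 19 of 21 listed members measured and 0 called, when 0.148% of all genes were called lower. At an unadjusted p under 0.05, 7 were lower (12.7% of all genes) and 0 higher (8.34% of all genes), and the median was -0.46. Cd33, a sialic acid-binding lectin of myeloid cells, was at 6.99, 7.24 and 7.56 in KO against 8.37, 7.82 and 8.10 in WT (-0.83 ± 0.20; limma, adjusted p = 0.115). Cd48, a SLAM-family protein that long-term stem cells lack, was at 8.05, 7.55 and 7.98 in KO against 8.85, 8.52 and 8.30 in WT (-0.70 ± 0.19; limma, adjusted p = 0.143).

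The rest of the ETS family did not share 1 direction. Of 19 measured genes 0 were called (0.148% of all genes were called lower and 0.236% higher). At an unadjusted p under 0.05, 5 were lower (12.7% of all genes) and 2 higher (8.34% of all genes). Of the 19, 11 had a lower KO mean (55.7% of all genes) and 8 a higher one. The median was -0.07, beside -0.04 over all genes. The smallest p belonged to Etv4 (-0.46 ± 0.12; limma, adjusted p = 0.131) and Etv5 (-0.42 ± 0.13; limma, adjusted p = 0.158), a pair of related ETS activators. Etv4 lies on chromosome 11.

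Genes around MYC did not all lie to one side. Of 20 measured partners and regulators limma called 0 (0.148% of all genes were called lower and 0.236% higher). At an unadjusted p under 0.05, 2 were lower (12.7% of all genes) and 3 higher (8.34% of all genes). Of the 20, 9 had a lower KO mean (55.7% of all genes) and 11 a higher one. The median was 0.04, beside -0.04 over all genes. Ruvbl1, an ATPase of chromatin complexes that MYC recruits, was at 0.28 ± 0.10 (limma, adjusted p = 0.186) and Zbtb17, which encodes the MYC partner MIZ1, at 0.36 ± 0.13 (limma, adjusted p = 0.201). Of 25 textbook MYC targets 0 were called, and 1 was lower and 0 higher at an unadjusted p under 0.05, beside the same shares. A lower KO mean was found for 9 of the 25 (55.7% of all genes) and a higher one for 16, with a median of 0.06. Cdkn1a, the cell cycle inhibitor p21 that MYC represses, read 6.82, 6.80 and 6.92 in KO against 7.34, 7.17 and 7.89 in WT (-0.62 ± 0.19; limma, adjusted p = 0.165), and Nme1, a nucleoside diphosphate kinase, was at 0.30 ± 0.14 (limma, adjusted p = 0.293).

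A list of 13 genes that PU.1 or RUNX1 is known to regulate in myeloid cells was measured whole, and it shares Csf1r, Elane, Csf3r and Mpo with the neutrophil or monocyte markers given further on. Limma called 0 of them (0.148% of all genes were called lower). All 13 had a lower KO mean (55.7% of all genes), 9 were lower at an unadjusted p under 0.05 (12.7% of all genes), and the median was -0.51, beside -0.04 over all genes. Ptprc, the leukocyte phosphatase CD45, read 10.25, 10.12 and 10.17 in KO against 11.17, 10.69 and 10.68 in WT (-0.67 ± 0.16; limma, adjusted p = 0.113), and Csf2ra, a receptor chain for GM-CSF, was at -0.72 ± 0.19 (limma, adjusted p = 0.137).

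Markers of other blood cells moved with these results, and in sorted cells fewer cells of a type and less RNA per cell cannot be told apart. Markers of the labelled cell type were present, with 10 of 12 erythroid markers measured. Their list means were 12.17 to 12.21 in KO and 12.27 to 12.33 in WT, which did not overlap. Of the 10, 9 had a lower KO mean. Array medians were also lower in KO, at 5.62 to 5.68 against 5.73 to 5.78 in WT. No list mean here was corrected for that offset, and its part in the erythroid gap was not tested. For 10 of 12 stem and multipotent progenitor markers, which include Cd34, Meis1 and Hoxa9, the list mean was 6.05 to 6.12 in KO and 6.34 to 6.47 in WT, and 8 of the 10 had a lower KO mean. The mean log2 intensity of 11 of 12 B lineage markers was 8.36 to 8.70 in KO and 8.78 to 9.39 in WT, that of all 12 neutrophil markers 10.99 to 11.33 in KO and 11.49 to 11.68 in WT, and that of all 12 monocyte and macrophage markers 8.33 to 8.49 in KO and 8.59 to 9.01 in WT. For 10 of 12 mast cell, basophil and eosinophil markers it was 7.11 to 7.24 in KO and 7.41 to 8.14 in WT, and for 10 of 12 T and NK markers 6.18 to 6.47 in KO and 6.60 to 7.17 in WT. A lower KO mean was found for 10 of 11 B lineage, 12 of 12 neutrophil, 12 of 12 monocyte, 9 of 10 mast cell and 7 of 10 T and NK markers, where 55.7% of all genes had one, and 0 of them lay under the 25th percentile on all arrays. None of these 5 list means overlapped between genotypes, limma called 0 of their members, and their part in the differences of Cd34, Erg, Fli1, Spi1 and the PU.1 and RUNX1 genes was not tested.

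WT 497, the highest array for Spi1 and Fli1, was also the highest for the B lineage, T and NK, neutrophil, mast cell, stem cell and endothelial lists. Its array median, 5.78, was the highest too, and it was the highest WT array for the megakaryocyte list. The monocyte and macrophage list was instead highest on WT 504 (9.01, against 8.99 on WT 497), the lowest WT array for Spi1. Cd34 was highest on WT 550, and a link between these levels was not tested. The megakaryocyte list, which marks cells in which Fli1, Erg and Runx1 act, overlapped between genotypes, at 8.69 to 9.0 in KO and 8.72 to 8.84 in WT. Its brightest members Ppbp and Pf4, both platelet chemokines, were at 0.04 ± 0.11 and -0.10 ± 0.19. Of its 10 measured genes, 4 had a lower KO mean (55.7% of all genes). The endothelial list, which marks another cell type that uses Erg, Fli1 and Cd34, also overlapped. It was at 5.20 to 5.41 in KO and 5.36 to 5.42 in WT, with Sox18 under the 25th percentile on all 6 arrays. Its genes were not all alike, and 5 of the 12 had a lower KO mean. At an unadjusted p under 0.05, 2 were lower (12.7% of all genes) and 0 higher (8.34% of all genes). The 2 were Emcn (-0.61 ± 0.16) and Kdr (-0.43 ± 0.16). The 3′ minus 5′ signal of the actin control, a sign of RNA integrity or labelling, was 1.82 to 1.86 in KO and 1.65 to 1.67 in WT on the log2 scale, and that of the Gapdh control 1.0 to 1.05 in KO and 1.03 to 1.09 in WT. The part of this signal in the results was not tested.

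**Figure D4:**
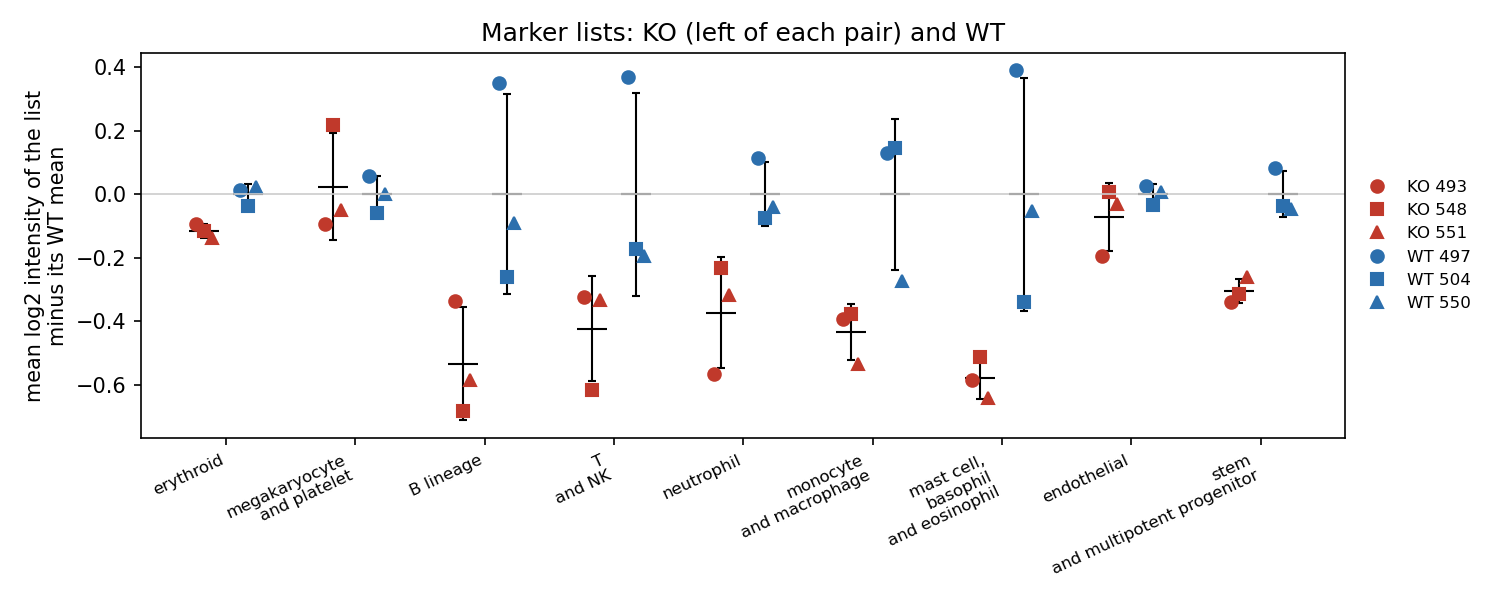
Mean log2 intensity of each marker list on every array, minus the list's WT mean, KO left and WT right of each pair; the long bars are means and the error bars SDs of 3 mice. The KO arrays lie below all WT arrays for the erythroid, B lineage, T and NK, neutrophil, monocyte, mast cell and stem cell lists. They overlap the WT arrays for the megakaryocyte and endothelial lists. The stem cell list includes Cd34, Meis1 and Hoxa9. Array medians, which were also lower in KO, were not subtracted.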

How the data were processed

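The deposited intensity values were made by the authors with RMA, per the submitters' processing notes, with software, version and background step not given in the sources used here. RMA usually makes the distributions of the arrays alike, which would take out part of any shift common to most transcripts. The deposited intensity scale was linear, its minimum was 1, and 100% of values matched 2 raised to an exponent of 2 decimals within 0.0051, so log2 values were taken without a pseudocount. Array medians were 5.62 to 5.68 in KO and 5.73 to 5.78 in WT, so the distributions were not fully alike. Every KO median was below every WT median, and the reported fit left this offset in the differences.

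After 64 control probe sets were left out, 45037 were tested with limma 3.58.1 in R 4.3.3 (lmFit, eBayes, no covariate) and Benjamini-Hochberg adjustment over all of them, at an adjusted p of 0.05. The fit was run on simulated data with independent noise and known added differences. That run held no shift shared across an array, so it does not bear on the calls reported here. Gene names came from GEO's platform annotation: 34945 probe sets had 1 gene, 932 several and 9160 none here. Chromosomes came from RefSeq (GRCm38.p6). The number of arrays limits precision. The p-values set each difference against the spread between these mice, with limma's variances moderated over all probe sets. For Cd34 limma gave an unadjusted p of 0.0022 and the ordinary equal-variance test 0.0127. The members, the 6 wider lists, the 9 marker lists and the tests were chosen with earlier results of these data known. Named genes are all members, and of each wider list the called members or, with none called, the 2 with the smallest p. Cbfb, Gata2, Tal1, Lmo2, Ldb1 and Tcf12 were added after their values were seen. Alternatives were renewed quantile, cyclic loess and median normalization, an intensity trend with robust prior, an ordinary equal-variance test, a level filter, array weights, other choices of probe set, and leaving out each mouse.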

Additional observations from a re-analysis of the deposited data

How the results depend on the processing

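Under the alternatives the count of member probe sets called lower was 3 with the intensity trend and robust prior and 2 with dim probe sets left out, against 0 in the reported fit. The same settings gave 3 and 2 member genes called lower. Without dim probe sets, 9 of 10 genes and 15 of 21 probe sets were tested, and fewer tests mean a milder adjustment. Member genes and probe sets called lower numbered 0 in each fit that left out 1 mouse, where 5 to 14 of all 18193 genes were called. Members called higher numbered 0 under any alternative. Signs were kept in all alternatives for Cd34, Erg, Fli1, Spi1, Etv6, Lyl1, Hoxa9 and Runx1. For Runx1 each alternative read the brightest probe set or the mean of all 6. Its kept sign therefore does not cover the 3 probe sets with a lower KO mean. Meis1 turned to 0.0439 with renewed quantile normalization, 0.0257 with cyclic loess, 0.06 with median centring, 0.07 without KO 493 and 0.065 without WT 550. Myc turned to 0.0333 without KO 551 and 0.122 without WT 550. Leaving out each mouse in turn, Meis1 ran from -0.155 to 0.07 and Myc from -0.457 to 0.122; the cause was not tested. Median centring moved the median of all genes from -0.04 to 0.07. No paired analysis was possible because no number occurs in both genotypes. Dim signal limits the third Meis1 probe set, which lay under the 25th percentile on 2 of 6 arrays.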

Other observations

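Some genes outside the lists followed Erg or Cd34 from array to array. Among 10743 non-member genes above the median level, likeness was measured as the root mean square difference of log2 values centred over the 6 arrays. Nearest to Erg was Adgrg3, an adhesion receptor of granulocytes, at 0.04, with 7.16, 7.49 and 7.43 in KO and 8.11, 7.83 and 8.13 in WT. Tmem170 (0.0467) and Slc22a17, the lipocalin 2 receptor (0.0531), came next. Nearest to Cd34 was Iba57, a mitochondrial iron-sulfur cluster assembly factor, at 0.0479, with 9.02, 9.03 and 9.12 in KO and 9.99, 9.51 and 10.06 in WT. Naglu, a lysosomal enzyme that degrades heparan sulfate (0.0776), and Raph1 (0.0827) followed. Iba57 and Naglu lie on chromosome 11. These genes were picked for their likeness over the same arrays, so their own differences, -0.80 to -0.65, are a description.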
